A study of Mus musculus with 3 samples.

Results

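The genes that copy DNA in S phase were read in 3 sorted cell fractions from mouse bone. The set was given by name and holds 50 genes: the origin and helicase proteins, the polymerases and other fork proteins, the enzymes of nucleotide supply, the factors that copy chromatin, and the regulators of S-phase entry. All probe sets that the platform annotation gives to 1 of these symbols alone were taken, 108 in all, and they covered 49 of the 50 genes, out of 18193 genes named on the array. Chaf1a, the large subunit of chromatin assembly factor, is not analysed here.

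The cells came from bone fragments of the femur and tibiae of C57BL/6 mice, digested with collagenase and labelled endosteal, that is, from the inner bone surface; no age, genotype or treatment is given in the sources used here. All 3 fractions were negative for CD45, CD31 and Ter119, which mark blood, endothelial and erythroid cells. They differed in PDGFRα, a growth factor receptor of mesenchymal cells, and Sca-1, a surface protein of mesenchymal progenitors: PDGFRα−Sca-1− (here double-negative), PDGFRα+Sca-1− (single-positive) and PDGFRα+Sca-1+ (double-positive). Signals below follow that order. Each fraction had 1 array, made after 2 rounds of RNA amplification, so no difference below has a replicate check or a test, and in such bulk RNA fewer cycling cells and less RNA per cycling cell cannot be told apart.

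The gate genes and cell markers were read first. Pdgfra had signals of 586, 2420 and 12846 in the order above, while Ptprc (CD45) and Pecam1 (CD31) were under the floor, a signal of 93.2 below which values were not read, on all 3 arrays. The label of endosteal cells was read against bone and cartilage markers: 10 osteoblast genes summed to 46043, 129940 and 19852, and 15 cartilage genes to 291695, 315260 and 45753. Both lists thus summed higher in the Sca-1− fractions than in double-positive cells. Above the floor were 15, 15 and 14 of the cartilage genes and 10, 10 and 8 of the osteoblast genes. The sums of different lists depend on their genes and probes and are not compared with each other. The 3′ over 5′ signal ratio of Actb, a sign of RNA length after amplification, was 2.99, 2.63 and 4.65; its part in the results was not tested. The 11 neutrophil genes measured summed to 733, 3559 and 3509, and 2, 11 and 10 of them were above the floor. Among them Mpo was at 44.9, 712 and 655 and S100a8 at 143, 662 and 521. The 12 erythroid genes measured summed to 8114, 2679 and 1663, of which the transferrin receptor Tfrc, which dividing cells also express, gave 6574, 1752 and 1063; 7, 7 and 4 of the 12 genes were above the floor. Part of the erythroid genes were low with the members: 4 of 8 compared were at least 2-fold lower in single-positive than in double-negative cells. In double-positive cells 5 of 7 were, and 0 were higher in either. Of all genes 5.63% and 12.2% were lower in the same order. In single-positive cells 2 of the 8 had log2 ratios above 0, at most 0.26. With other floors, scalings or probe sets both erythroid counts ran from 1 to 5. With the floor at the 67th percentile only 2 genes were compared, of which 1 was lower. With the floor at the 33rd percentile 1 of 9 was at least 2-fold higher in single-positive cells, against 5.68% of all genes. Among the erythroid genes Hemgn was at 360, 138 and 53.8, Klf1 at 192, 96.2 and 59.7, Car1 at 215, 69.5 and 102 and Ermap at 251, 118 and 101, while Hba-a1 and Alas2 were under the floor on all 3 arrays. These genes were named after their values were seen. Of 12 macrophage genes 5, 5 and 4 were above the floor, of 12 endothelial genes 1, 3 and 2, and of 11 genes of the B lineage 1 on each array. The part of these cells in the results was not tested.

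DNA replication starts when the origin recognition complex, Cdc6 and Cdt1 load the ring of MCM proteins on DNA before S phase. Cdc45 and the GINS proteins then turn the ring into the moving helicase, behind which primase and the polymerases build the new strands. Many of these genes are known targets of E2F factors, which are released from the retinoblastoma protein as cells pass from G1 into S phase, so their transcripts are widely read as a sign of cycling cells.

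The promoters of the set are shown because several members were low together. The RefSeq promoter table (GRCm38.p6) held 50 promoters, each from 250 bases before to 50 after a start site, for 40 of the 50 genes. E2F letters were searched on both strands as TTTCCCGC, TTTCGCGC, TTTGCCGC or TTTGGCGC, allowing matches to overlap. They were in 16 of the 50 promoters (32%), against 2.26% of all 32851 promoters and 3.30% of the 12621 promoters with a GC content between the quartiles of the set (51.8% to 66.4%). Capitals mark these letters in the promoters below. Mcm3, Mcm5, Mcm6 and Mcm7 encode subunits of the same ring whose signals differed between the fractions in different ways, Cdc6 was low in single-positive cells alone, and Rrm2 was much lower in both PDGFRα+ fractions with no such letters in its promoter.
Mcm3, chr1:20820263-20820562, minus strand: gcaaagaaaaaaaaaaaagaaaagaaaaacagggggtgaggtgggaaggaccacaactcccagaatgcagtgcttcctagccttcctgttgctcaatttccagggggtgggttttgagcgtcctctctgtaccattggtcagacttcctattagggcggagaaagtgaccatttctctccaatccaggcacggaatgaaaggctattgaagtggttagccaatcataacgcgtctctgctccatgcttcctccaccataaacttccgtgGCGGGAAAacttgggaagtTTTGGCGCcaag
Mcm5, chr8:75109259-75109558, plus strand: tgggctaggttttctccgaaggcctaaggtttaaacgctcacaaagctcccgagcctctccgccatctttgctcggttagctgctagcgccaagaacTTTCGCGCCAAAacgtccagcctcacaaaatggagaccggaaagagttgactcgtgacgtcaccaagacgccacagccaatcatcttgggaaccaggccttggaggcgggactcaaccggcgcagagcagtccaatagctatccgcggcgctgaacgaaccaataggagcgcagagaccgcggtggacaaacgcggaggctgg
Mcm6, chr1:128359656-128359955, minus strand: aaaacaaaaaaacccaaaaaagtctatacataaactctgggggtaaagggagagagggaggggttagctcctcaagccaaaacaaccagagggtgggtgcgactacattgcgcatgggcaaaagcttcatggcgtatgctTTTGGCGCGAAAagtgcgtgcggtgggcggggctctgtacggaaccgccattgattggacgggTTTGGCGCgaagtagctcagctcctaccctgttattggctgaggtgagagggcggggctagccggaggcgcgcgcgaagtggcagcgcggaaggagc
Mcm7, chr5:138171834-138172133, minus strand: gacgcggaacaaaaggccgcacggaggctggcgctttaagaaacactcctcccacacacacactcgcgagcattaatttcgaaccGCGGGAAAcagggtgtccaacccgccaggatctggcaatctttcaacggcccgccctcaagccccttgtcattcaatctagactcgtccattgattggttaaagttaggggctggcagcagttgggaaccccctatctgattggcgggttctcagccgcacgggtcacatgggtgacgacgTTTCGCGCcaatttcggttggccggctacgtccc
Cdc6, chr11:98907901-98908200, plus strand: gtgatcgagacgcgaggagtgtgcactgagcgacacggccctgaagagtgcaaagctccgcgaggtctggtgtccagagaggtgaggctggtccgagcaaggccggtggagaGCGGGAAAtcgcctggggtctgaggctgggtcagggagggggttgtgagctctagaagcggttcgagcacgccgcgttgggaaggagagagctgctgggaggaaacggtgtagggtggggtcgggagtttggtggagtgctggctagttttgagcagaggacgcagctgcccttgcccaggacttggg
Rrm2, chr12:24708004-24708303, plus strand: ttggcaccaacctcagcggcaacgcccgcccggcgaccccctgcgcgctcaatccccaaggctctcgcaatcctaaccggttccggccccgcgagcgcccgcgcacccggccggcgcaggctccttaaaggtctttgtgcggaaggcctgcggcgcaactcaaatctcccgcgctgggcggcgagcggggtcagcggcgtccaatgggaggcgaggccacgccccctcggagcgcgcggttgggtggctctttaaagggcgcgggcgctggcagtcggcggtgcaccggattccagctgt

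The Mcm3 promoter held 2 matches downstream of the start site, and the Mcm6 promoter held 3, of which those at 110 and 106 bases before the start share letters, as do the 2 in Mcm5. Another RefSeq promoter of Mcm7, at chr5:138171217-138171516, held 0 matches and is not printed. A match describes the sequence only and is not shown to be a site of binding. Genes with the letters differed in their signals: Mcm6, with 3 matches, was 1.5-fold higher in single-positive than in double-negative cells, whereas Mcm3 and Mcm5, with 2 each, were 6.11-fold and 6.47-fold lower. They were found in 5 of 14 promoters (35.7%) of the members at least 2-fold lower in both PDGFRα+ fractions and in 4 of 19 (21.1%) of those lower in neither, a difference that was not tested. 2 further motifs were searched on both strands in the same windows. CCAAT, the letters bound by NF-Y, was in 30 of the 50 promoters (60.0%), against 37.4% of all and 37.7% of those in the GC range of the set. TTTGAA, the cell cycle homology region of late cell cycle genes, was in 7 of 50 (14%), against 17.9% of all promoters and 11.1% of those in the GC range of the set. It was in 16 of the 22 promoters of mitosis genes (72.7%), while the E2F letters were in 1 of those 22 (4.55%).

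Most members had their highest signal in double-negative cells. Of the 47 above the floor on at least 1 array, 38 were highest there (80.9%), 3 in single-positive and 6 in double-positive cells, while 30.6% of 12211 such genes in all were highest in double-negative cells. The lowest signal could be read for the 42 members with at most 1 array under the floor. It was in single-positive cells for 27 (64.3%), in double-positive cells for 14 (33.3%) and in double-negative cells for 1 (2.38%). Over the 10951 genes read by the same rule these shares were 32.7%, 38.2% and 29.1%. The order double-negative, then double-positive, then single-positive held for 22 of the 42 members (52.4%) and for 11% of the 10951 genes. Of the 49, 36 were above the floor on all 3 arrays, 11 on 1 or 2, and 2 on none: Gins3, a subunit of GINS, and Tyms, thymidylate synthase. A further probe set assigned jointly to Tyms and a pseudogene was not read.

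**Figure D1:**
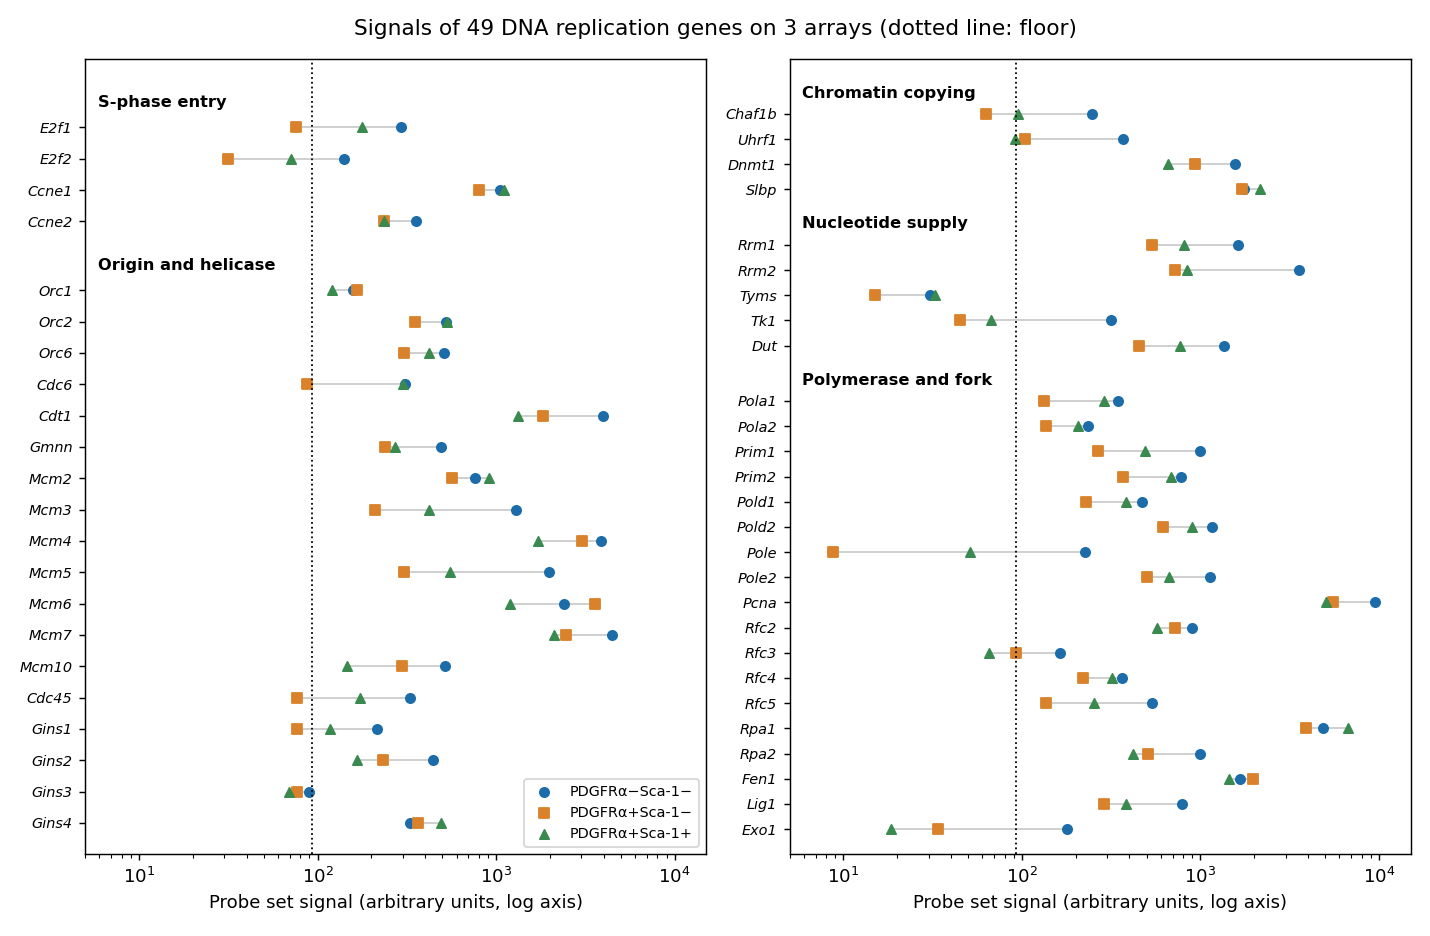
Signals of the 49 measured genes (horizontal log axis, arbitrary units), in 1 row per gene, with 1 symbol per array and the floor of 93.2 as a dotted line. In most rows the circle of double-negative cells lies farthest right, as for Rrm2 at 3556 against 722 and 837; levels of different genes depend on their probes and are not comparable.

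The comparison of single-positive with double-negative cells asked how the replication genes differ with PDGFRα among Sca-1− cells. Of 47 members compared, 22 were at least 2-fold lower in single-positive cells and 0 at least 2-fold higher, with a median log2 ratio of −0.93. Of all 11675 genes compared, 5.63% were lower by that much and 4.82% higher (10.4% either way), with a median of −0.03. Of the 22, 7 were under the floor in single-positive cells, so their fold is a lower bound, and of the 25 that did not reach 2-fold 3 had only such a bound. In the comparison of double-positive with double-negative cells, 18 of 47 members were at least 2-fold lower and 0 higher, with a median of −0.86, against 12.2% lower and 14.5% higher (26.6% either way) of 11843 genes and a median of 0.03. These comparisons share the double-negative array, so they are not separate evidence. There were 12 of 47 members at least 2-fold lower in both PDGFRα+ fractions, against 3.45% of all genes compared: Cdt1, Mcm3, Mcm5, Prim1, Pole, Rfc5, Lig1, Rrm1, Rrm2, Tk1, Chaf1b and Uhrf1. A further 10 were lower in single-positive cells alone by this threshold and 6 in double-positive cells alone. The matching shares of all genes were not taken, so these counts are not read as a result. Some of these members were close to 2-fold in the other fraction too, such as Cdc45 and Rpa2, at log2 ratios of −0.94 and −0.97. Others were not, such as Cdc6 at −0.02 and Mcm4 at −0.36.

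The 2-fold calls of single genes depended on the processing. They were repeated with 8 other settings: the floor at the 33rd or 67th percentile of signals, no floor with 32 added to each signal, quantile normalization, median scaling, the mean over a gene's probe sets, and the lowest-numbered or brightest probe set with a plain name. Of the 22 lower in single-positive than in double-negative cells, 5 kept the call under all 8: Mcm5, Prim1, Rfc5, Lig1 and Rrm2. Of the 18 lower in double-positive than in double-negative cells, 4 did: Mcm4, Mcm5, Rrm2 and Dnmt1. Of the 5 calls between the PDGFRα+ fractions 0 did. With the floor at the 67th percentile more signals were raised to it, so many ratios became bounds. A call that ended on such a bound could no longer be read, and its difference was not shown to be smaller.

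Between the PDGFRα+ fractions fewer members reached 2-fold. Of 42 compared, 3 were at least 2-fold higher in double-positive cells, 2 at least 2-fold lower and 37 did not reach 2-fold, with a median log2 ratio of 0.42; over all 11855 genes 14.9% were higher and 11.3% lower (26.2% either way), with a median of 0.07. With the arrays scaled to a common median, 6 were higher and 1 lower, against 17.8% and 9.69% of all genes. The median of all genes then moved to 0.19.

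**Figure D2:**
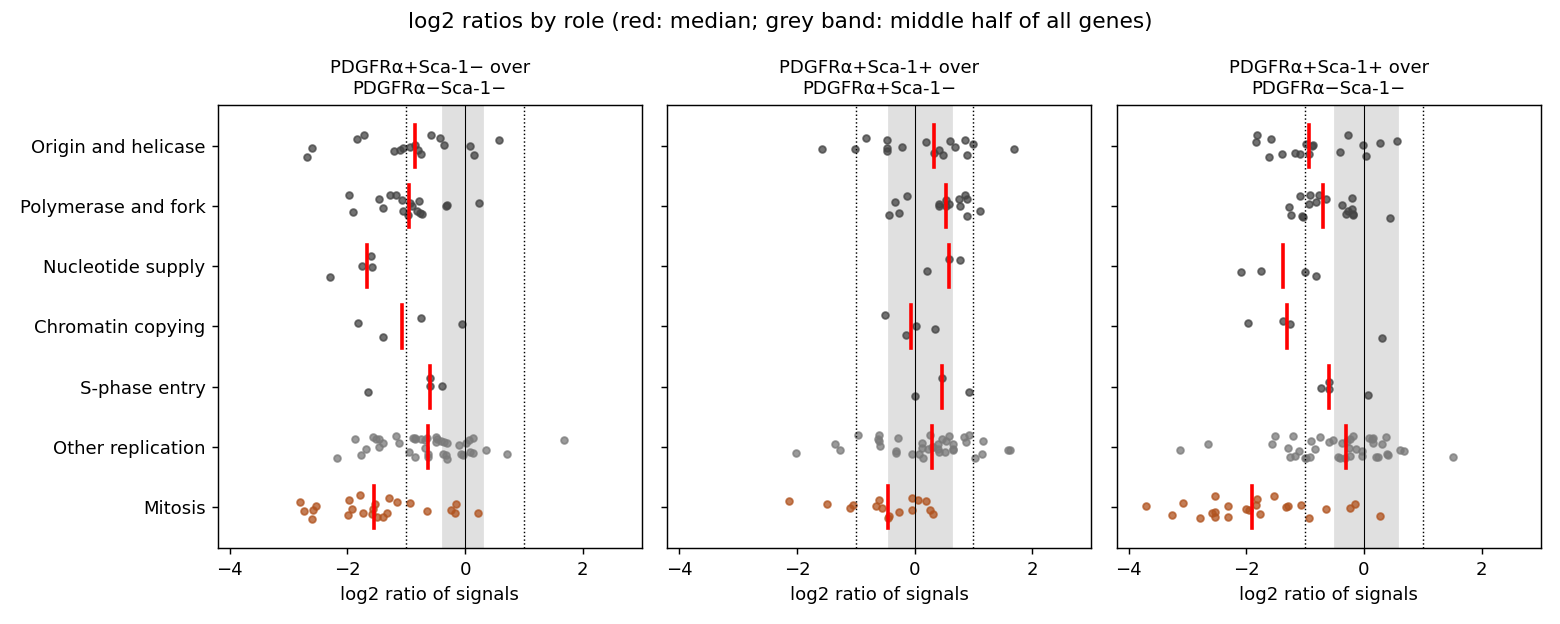
log2 ratios of signals for each role group, for other replication genes and for mitosis genes, in 1 panel per comparison; each point is a gene, red bars are medians, the grey band spans the quartiles of all genes and dotted lines mark 2-fold. In both panels of ratios over double-negative cells the medians of all groups lie left of 0, farthest for nucleotide supply at −1.68 in the first and for mitosis genes at −1.90 in the last; in the middle panel most replication medians lie right of 0 and that of the mitosis genes at −0.44.

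Of the 18 origin and helicase genes, 17 were compared, and 7 were at least 2-fold lower in single-positive than in double-negative cells, 0 higher, with a median log2 ratio of −0.86. The same count, 7 of 17, was lower in double-positive than in double-negative cells, with a median of −0.94. These counts ran from 3 to 8 and from 4 to 8 over the other settings. Of all genes 5.63% and 12.2% were lower, and 3.48% to 6.35% and 9.36% to 13.0% over those settings. The genes of the recognition complex, which marks origins, were among those that did not reach 2-fold. Orc1 had signals of 157, 166 and 120 in double-negative, single-positive and double-positive cells, Orc2 523, 349 and 534, and Orc6 509, 303 and 422. By its other probe set Orc1 was above the floor in double-negative cells alone, at 172 against 82.7 and 41.9. That gave a log2 ratio of −0.89 as a bound in both comparisons with double-negative cells. By their brightest probe sets the loading factors differed more. Cdc6 was at 307 and 302 in double-negative and double-positive cells and at 87.2, under the floor, in single-positive cells, at least 3.29-fold lower than in double-negative cells. Between the PDGFRα+ fractions it was at least 3.24-fold higher in double-positive cells. Both calls ended with the floor at the 67th percentile, where the log2 ratios of −0.26 and 0.24 are bounds.

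Cdt1, which loads the ring together with Cdc6, went 3951, 1837 and 1326, so it was 2.15-fold lower in single-positive and 2.98-fold lower in double-positive than in double-negative cells. Its next brightest probe set was at 912, 595 and 437, which falls short of 2-fold in the first comparison at a log2 ratio of −0.62; with the mean over probe sets both calls ended, at −0.57 and −0.88. Gmnn, the geminin gene whose product blocks Cdt1 after S phase begins, had signals of 491, 238 and 271 and was 2.06-fold lower in single-positive cells. This call ended with the floor at the 67th percentile (a bound of −0.94) and with no floor (log2 ratio −0.95).

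The 6 genes of the MCM ring, whose proteins join in equal numbers, did not keep a common ratio. Mcm5 was at 1965 in double-negative, 304 in single-positive and 551 in double-positive cells, 6.47-fold and 3.57-fold lower than in double-negative cells. Mcm3 was at 1285, 210 and 422, which makes it 6.11-fold and 3.04-fold lower. These 2 ratios for single-positive over double-negative cells were at the percentile of 0.2 among all genes. Mcm7 was at 4432, 2446 and 2100, with a log2 ratio of −0.86 in the first comparison and 2.11-fold lower in double-positive cells, which ended with median scaling at −0.97. Mcm4 was at 3867, 3018 and 1713, and Mcm6 at 2384, 3572 and 1203. Mcm6 was thus highest in single-positive cells and was 2.97-fold lower in double-positive than in single-positive cells (log2 ratio −0.93 with the mean over probe sets), whereas Mcm3 and Mcm5 were lowest in single-positive cells.

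Part of this spread lies between probe sets of the same gene. Mcm2 had signals of 760, 567 and 917 by its brightest probe set and 701, 165 and 178 by the other, that is, log2 ratios of −0.42 and −2.09 for single-positive over double-negative cells and of 0.27 and −1.98 for double-positive over double-negative cells. The brighter one has a suffix by which the array maker marks probes that can match more than 1 transcript. The probe sets used for the other genes of the ring also have such suffixes. For single-positive over double-negative cells Mcm4 gave −0.36 by its suffixed and −1.05 by its plain probe set. Mcm7 gave −0.86 by its brightest probe set and −1.13, −0.86 and −0.67 by the others, all suffixed. For Mcm6 both probe sets above the floor agreed in sign, 0.58 and 0.21 for single-positive over double-negative cells and −1.57 and −1.21 for double-positive over single-positive cells. For Mcm3 the probe sets above the floor in double-negative cells were all lower in single-positive cells, at log2 ratios of −2.61, −1.68, and −1.78 and −0.85 as bounds. Mcm5 gave −2.69 by its brightest probe set and a bound of −2.05 by its second. Mcm6 thus differed from Mcm3 and Mcm5 with each of these probe sets, while the place of Mcm2 depended on the probe set. Mcm3 was also 2.01-fold higher in double-positive than in single-positive cells, a call that ended under 6 of the 8 other settings, with log2 ratios of 0.47 to 0.98 where it could be compared. Its call against double-negative cells ended in the double-positive fraction with the mean over probe sets, at −0.91, and its lowest-numbered plain probe set was under the floor on all 3 arrays.

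**Figure D3:**
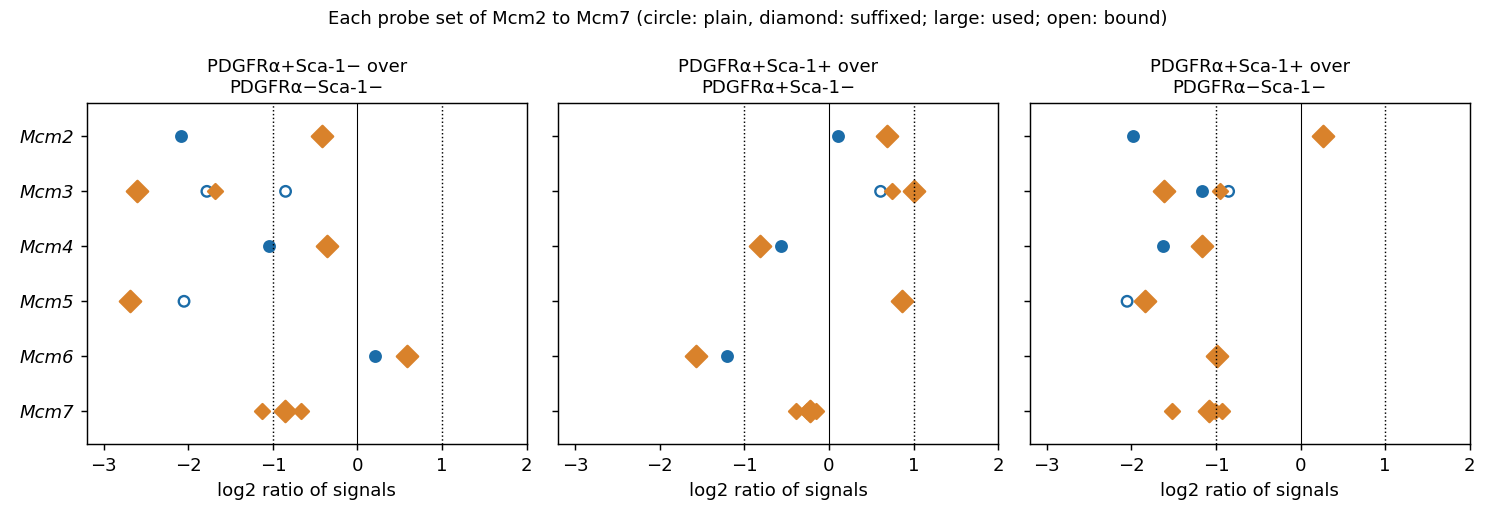
log2 ratios of every probe set of Mcm2 to Mcm7 with a signal over the floor on either array compared, in 1 panel per comparison. Circles are plain and diamonds suffixed probe sets, large symbols those used for the gene, and open symbols bounds; the Mcm2 probe sets lie apart, at −0.42 and −2.09 in the first panel, and those of Mcm6 lie right of 0 there.

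Of the factors that turn the ring into the helicase, Cdc45 went from 331 in double-negative to 76.3 in single-positive and 173 in double-positive cells. It was at least 3.56-fold lower in single-positive cells. That call ended with the floor at the 67th percentile (a bound of −0.37) and with the mean over probe sets (log2 ratio −0.92). Gins1 was at 216, 76.5 and 117, at least 2.32-fold lower in single-positive cells. It was at −0.61 with the mean over probe sets and not compared with the higher floor. Gins2 was at 443, 232 and 167, with its lowest signal in double-positive cells, 2.65-fold lower than in double-negative cells. The call ended with the floor at the 67th percentile (a bound of −0.79) and with its plain probe set (a bound of −0.67). That probe set was above the floor only in double-negative cells, at 149 against 51.4 and 22.3. Gins4 was the only GINS gene that was highest in double-positive cells, at 331, 367 and 489. The GINS subunits, which also act as 1 complex, thus also differed in the order of the fractions. Mcm10, which helps the helicase start, was at 517, 298 and 147, 3.52-fold lower in double-positive than in double-negative cells. It was 2.03-fold lower in double-positive than in single-positive cells, a call that ended under 7 of the 8 other settings. The log2 ratios were −0.99 to −0.22 where it could be compared, and −0.22 was a bound with the floor at the 67th percentile. Its call against double-negative cells ended with the mean over probe sets, at −0.61, and its plain probe set was not compared.

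Of the 18 polymerase and fork genes, 8 were at least 2-fold lower in single-positive than in double-negative cells and 0 higher, with a median log2 ratio of −0.95. The count ran from 5 to 9 over the other settings, where the share of all genes ran from 3.48% to 6.35%. In double-positive cells 5 of 18 were at least 2-fold lower than in double-negative cells and 0 higher, with a median of −0.71. Of all genes 12.2% were lower there. The count was 2 of 18 with median scaling, beside 10.6% of all genes. It was 3 with no floor, beside 10.2%, and 7 with the floor at the 33rd percentile, beside 13.0%. Among the primase genes, which make the RNA that starts each new strand, Prim1 was at 1000, 268 and 486 and Prim2 at 774, 369 and 683. Prim1 was 3.74-fold lower in single-positive cells, with log2 ratios of −1.90 and −1.97 by its 2 probe sets, and 2.06-fold lower in double-positive cells. The second of these calls ended with median scaling (log2 ratio −0.93) and with no floor (−0.99). Prim2 was 2.10-fold lower in single-positive cells (−0.78 with the mean over probe sets) and at a log2 ratio of −0.18 in double-positive cells.

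Pola1, the catalytic subunit of the polymerase that works with primase, was also lowest in single-positive cells. It was at 347, 133 and 289, so it was 2.62-fold lower in single-positive than in double-negative cells and 2.18-fold higher in double-positive than in single-positive cells. With the floor at the 67th percentile both calls ended, at −0.44 and 0.17 as bounds. They also ended with the mean over probe sets, at −0.69 and 0.56, and the second with no floor, at 0.96. Its partner Pola2 was at 233, 136 and 205 and did not reach 2-fold. Pole, the catalytic subunit of the leading strand polymerase, was above the floor only in double-negative cells, at 226 against 8.71 and 51.1, at least 2.43-fold lower in both others, and it was not compared with the floor at the 67th percentile. Its partner Pole2 was at 1133, 500 and 668, 2.27-fold lower in single-positive cells (−0.59 with the mean over probe sets). Pold1, the catalytic subunit of the lagging strand polymerase, was at 470, 227 and 382, 2.07-fold lower in single-positive cells. This call ended with the floor at the 67th percentile (a bound of −0.88) and with no floor (−0.95). Pold2 was at 1161, 620 and 900.

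Pcna, the sliding clamp that holds the polymerases on DNA, had signals of 9505, 5548 and 5056, a log2 ratio of −0.78 and −0.91 against double-negative cells. Of the clamp loader genes, Rfc5 was at 536, 136 and 253, 3.94-fold lower in single-positive and 2.12-fold lower in double-positive cells, the second ending with median scaling (−0.98) and with no floor. Rfc2, Rfc3 and Rfc4, subunits of the same loader, did not reach 2-fold in any comparison; for Rfc3 this is a bound, since it was above the floor only in double-negative cells, at 163.

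The genes that join and trim the lagging strand differed among themselves. Lig1, the ligase that seals the fragments, was at 792, 288 and 383, 2.75-fold and 2.07-fold lower than in double-negative cells. Its call in double-positive cells ended with median scaling (log2 ratio −0.94) and with no floor (−0.99). Fen1, the nuclease that trims them, was at 1668, 1960 and 1448, with its highest signal in single-positive cells, and did not reach 2-fold. Its other probe set was at 242, 202 and 95.1, a log2 ratio of −1.35 for double-positive over double-negative cells. Exo1, a nuclease also used in mismatch repair, was above the floor only in double-negative cells, at 178, so its ratio, at least 1.91-fold lower, is a bound. Rpa1, which coats single-stranded DNA also in repair, was highest in double-positive cells, at 4884, 3885 and 6673, while its partner Rpa2 was at 991, 505 and 420 and was 2.36-fold lower in double-positive than in double-negative cells (−0.96 with the mean over probe sets).

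The nucleotide supply genes were low in both PDGFRα+ fractions. All 4 compared were at least 2-fold lower in single-positive than in double-negative cells, with a median log2 ratio of −1.68, and 3 of the 4 were lower in double-positive cells, with a median of −1.38. Over the other settings 2 to 4 and 2 to 3 were lower. There the shares of all genes ran from 3.48% to 6.35% and from 9.36% to 13.0%. Rrm2, the S-phase subunit of ribonucleotide reductase, went from 3556 to 722 and 837, 4.92-fold lower in single-positive and 4.25-fold lower in double-positive cells. In the first comparison the log2 ratio was −2.30, −2.65 and, as a bound, −2.08 by the 3 probe sets. Rrm1, the large subunit, was at 1625, 537 and 804, 3.03-fold and 2.02-fold lower. Its other probe set above the floor gave −0.80 and −0.60, short of 2-fold, and the call in double-positive cells also ended with median scaling (−0.91) and with no floor (−0.99). With the mean over probe sets both calls ended, at −0.80 and −0.54. Tk1, the thymidine kinase of cycling cells, was above the floor only in double-negative cells, at 314 against 44.9 and 67.4. It was at least 3.37-fold lower in both PDGFRα+ fractions. Both calls ended with the floor at the 67th percentile, at a bound of −0.30. Dut, which removes dUTP, was at 1349, 450 and 770, 3-fold lower in single-positive cells (−0.79 with the mean over probe sets, and not compared by its plain probe sets) and at a log2 ratio of −0.81 in double-positive cells.

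Of the 4 chromatin copying genes measured, 2 were at least 2-fold lower in single-positive and 3 in double-positive than in double-negative cells, with medians of −1.08 and −1.31. Of all genes 5.63% and 12.2% were lower. Over the other settings the counts ran from 0 to 2 and from 1 to 3. With the mean over probe sets they were 0 of 4 and 1 of 4, against 3.48% and 9.36% of all genes. Uhrf1, which brings the methyltransferase to newly made DNA, was at 366, 104 and 91.9, 3.53-fold lower in single-positive and at least 3.92-fold lower in double-positive cells. Both calls ended with the floor at the 67th percentile, at a bound of −0.51, and with the mean over probe sets, at −0.91 and −0.99. Dnmt1, that methyltransferase, was at 1566, 928 and 658, 2.38-fold lower in double-positive cells, with log2 ratios of −1.25, −1.40 and −1.13 by its 3 probe sets. Chaf1b, a subunit of the factor that places histones on new DNA, was at 246, 63.1 and 95.0, at least 2.64-fold lower in single-positive and 2.59-fold lower in double-positive cells. With the mean over probe sets its log2 ratios were −0.70 and −0.69, and with the floor at the 67th percentile it was not compared. Slbp, which binds histone mRNA, did not reach 2-fold by its brightest probe set, at 1756, 1697 and 2161, while its second probe set was 453 in double-positive cells against 213 in double-negative and 184 in single-positive cells.

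Of the 4 regulators of S-phase entry, E2f1 was the 1 that reached 2-fold. This activating E2F factor was at 293, 75.3 and 177, at least 3.14-fold lower in single-positive than in double-negative cells, and its second probe set, at 203, 47.5 and 221, was also under the floor in single-positive cells alone. The call ended with the floor at the 67th percentile (a bound of −0.19) and with the mean over probe sets (log2 ratio −0.92). E2f2, another activator, was above the floor only in double-negative cells, at 140, and its ratio, at least 1.51-fold lower, is a bound. The cyclin E genes, whose products drive entry into S phase with Cdk2, did not reach 2-fold: Ccne1 was at 1045, 799 and 1100 and Ccne2 at 358, 237 and 237. Of the 4, 1 was lower in single-positive and 0 in double-positive than in double-negative cells, against 5.63% and 12.2% of all genes. The group had a median log2 ratio of −0.60 in both comparisons with double-negative cells.

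Other replication genes, taken from a list of 46 of which 44 were measured, were read beside the members. Of 42 compared, 11 were at least 2-fold lower in single-positive than in double-negative cells and 1 higher, with a median of −0.63, and 10 were lower in double-positive cells and 1 higher, with a median of −0.31. Over the other settings the lower counts ran from 3 to 12 in both comparisons. Of all genes 5.63% and 12.2% were lower in the main setting. In double-positive cells 3 of 37 were lower with the floor at the 67th percentile, against 10.7% of all genes. With the mean over probe sets 3 of 42 were, against 9.36%. In single-positive cells the same settings gave 5 of 35 against 4.45%, and 3 of 42 against 3.48%. Clspn, the checkpoint protein claspin, was at 356, 97.5 and 119, and Hells, a chromatin remodeller of S phase, at 421, 84.2 and 210. Asf1b, a histone chaperone of cycling cells, was at 586, 183 and 93.0, 3.21-fold lower in single-positive and at least 6.29-fold lower in double-positive cells. E2f8, a repressor of E2F targets that is itself made in S phase, was at 817, 240 and 8.19, 3.41-fold lower in single-positive and at least 8.77-fold lower in double-positive cells.

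Some genes of that list went against the rest, at least in part. Timeless, which protects the fork, was at 145, 138 and 413, 2.85-fold higher in double-positive than in double-negative cells, while its partner Tipin was at 1517, 576 and 906. Topbp1, an activator of the helicase and the checkpoint, was at 786, 285 and 881. Like most of the list it was lower in single-positive than in double-negative cells, by 2.76-fold. It was 3.10-fold higher in double-positive than in single-positive cells, a step in which 26 of 38 genes of the list also rose. Its log2 ratio for double-positive over double-negative cells was 0.16, where the list had a median of −0.31. Shmt1, an enzyme of one-carbon supply, was highest in single-positive cells, at 277, 884 and 220.

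Mitosis genes were set beside the members because they mark a later stage of the cycle. Of 24 compared, 18 were at least 2-fold lower in single-positive than in double-negative cells and 19 in double-positive cells, with 0 higher in either and medians of −1.54 and −1.90. Of all genes 5.63% and 12.2% were lower. Over the other settings the mitosis counts ran from 9 to 19 and from 11 to 23. Between the PDGFRα+ fractions, 4 of 16 were lower in double-positive cells and 0 higher, against 11.3% and 14.9% of all genes. Over the other settings 1 to 5 were lower, with 1 of 16 against 8.76% of all genes for the mean over probe sets. The median was −0.44, where the members had 0.42. The lowest signal could be read for the 16 mitosis genes with at most 1 array under the floor. It was in double-positive cells for 12 and in single-positive cells for 3, against 14 and 27 of 42 members. Over all genes read by the same rule these shares were 38.2% and 32.7%. The difference between mitosis genes and members was not tested. Top2a, the topoisomerase that unlinks sister chromosomes, was at 1838, 302 and 141, and Cdc20, which starts their separation, at 3567, 1188 and 426. Cdk1, the mitotic kinase, was at 892, 127 and 92.5. Against double-negative cells they were 13.0-fold, 8.37-fold and at least 9.58-fold lower in double-positive cells, while Foxm1, a factor that activates mitosis genes, was at a log2 ratio of 0.27. The Actb 3′ over 5′ ratio was highest on the double-positive array, and its part in these ratios was not tested.

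Of 25 members with at least 2 probe sets compared between single-positive and double-negative cells, 18 gave the same call with every probe set and 7 gave a call with some and none with others, while 0 gave opposite calls. The corresponding counts were 14, 6 and 0 of 20 for double-positive over single-positive cells and 16, 9 and 0 of 25 for double-positive over double-negative cells. A bound short of 2-fold was counted as no call. Only such bounds made Mcm3 mixed in the first comparison, E2f1 in the second, and Gins2 and Rpa2 in the last. The SD of log2 ratios between probe sets of a member, both arrays above the floor, was 0.38, 0.28 and 0.47 in the same order, against 0.37, 0.60 and 0.50 over all genes. It covers scatter between probes, not between animals or arrays.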

How the data were processed

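RNA from 3 sorted fractions was hybridised to 1 Affymetrix array each, per the labels' protocols after two-cycle amplification. The deposited values are probe set signals (intensity, linear scale), made with MAS5 per the submitters' processing notes; its version and filters were not given in the sources used here. The trimmed mean of each array was 500 as deposited. Here 64 control probe sets were left out, the other 45037 were scaled to a common 2% trimmed mean, and values under a floor of 93.2 (the mean of the array medians) were raised to it before log2. Each of 18193 genes was read from its brightest probe set (mean log2 signal over the arrays). Those annotated with more than 1 symbol (932) or without one (9160) were not used. A gene was called at a 2-fold ratio; under the floor on 1 array it has a bound, on both it was not compared. Symbols came from the platform annotation, and 49 members matched RefSeq by gene number. With 1 array per fraction no test was possible, and the number of arrays limits precision. Median log2 ratios enter bounds at the floor. Members, lists and motifs were chosen with earlier results of these data known. All members could be named; from the other lists, the largest ratios, gate genes and most abundant markers, and a few genes chosen after their values were seen (Tipin, Foxm1, and the erythroid genes other than Tfrc). The calling step was tested on simulated data. Alternatives changed the floor, scaling, probe set and fold. Python 3.11.15, pandas 2.3.3 and numpy 2.4.6 were used.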

Additional observations from a re-analysis of the deposited data

How the results depend on the processing

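Over the 8 alternatives of floor, scaling and probe set, of which the brightest plain probe set was chosen after seeing the data, the median log2 ratio over the members ran from −1.05 to −0.75 for single-positive over double-negative, from 0.22 to 0.55 for double-positive over single-positive and from −0.90 to −0.61 for double-positive over double-negative cells. The 22 members lower in single-positive than in double-negative cells became 11 with the floor at the 67th percentile. They became 12 with the mean over probe sets, 36 at 1.5-fold and 11 at 3-fold. Of all genes 4.45%, 3.48%, 15.2% and 1.63% were lower in that order. The 18 lower in double-positive than in double-negative cells became 11 with the mean over probe sets, 31 at 1.5-fold and 6 at 3-fold. Of all genes 9.36%, 21.9% and 6.03% were lower in that order. With the lowest-numbered plain probe set 1 member was higher, against 13.2% of all genes. The 3 higher in double-positive than in single-positive cells became 5 and 0 with the floor at the 33rd and 67th percentile. They became 6 with median scaling, 1 with the mean over probe sets, 15 at 1.5-fold and 1 at 3-fold. Of all genes 14.1%, 14.1%, 17.8%, 10.1%, 26.6% and 7.09% were higher in that order. The 2 lower there became 1 with the floor at the 67th percentile, with no floor and log2(signal + 32), and with median scaling. Of all genes 10.4%, 9.72% and 9.69% were lower in that order. The 2 also became 1 with quantile normalization and the brightest plain probe set, where over 11.3% of all genes were lower. The 2 became 0 with the mean over probe sets and at 3-fold, against 8.76% and 5.85% of all genes. Mcm2 turned from a log2 ratio of 0.27 to −1.98 for double-positive over double-negative cells with either choice of a plain probe set. The 45 calls of single members under 8 alternatives make 360 cases: the call was kept in 287, under 2-fold in 59, not compared in 14 and opposite in 0; in 28 further cases a member without a call gained one. The causes were not tested, except that a higher floor leaves fewer genes compared (39, 32 and 39 members) and turns more ratios into bounds. The mean over probe sets includes those under the floor. No paired analysis was possible because each fraction has 1 array. Low signals limit the 10 genes under the floor in single-positive cells to bounds.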
